A study of Mus musculus with 23 samples.

Results

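The Hox genes encode homeodomain transcription factors and lie in 4 clusters, HoxA on chromosome 6, HoxB on 11, HoxC on 15 and HoxD on 2. Genes were taken whose symbol was Hoxa, Hoxb, Hoxc or Hoxd followed only by digits, and each was represented by its brightest probe set among those annotated with 1 symbol. This gave 33 genes of 30176 named genes on the array, with 1 probe set each. Another 5 Hox genes lay only on 4 probe sets that carry more than 1 symbol, and entered no comparison.

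RNA from the aorta of male ApoE-/- mice of strain C57BL/6J, all on high-fat feed and 8 weeks old when purchased, was hybridized to 23 Clariom D mouse arrays. Chronic intermittent hypoxia (CIH) consisted of repeated short cycles of low inspired oxygen during the daytime. The groups were CIH 8W (CIH for 8 weeks, n = 5), Nor 8W (normoxia for 8 weeks, n = 5), CIH 12W (CIH for 12 weeks, n = 4), CIH 8W+Nor 4W (CIH for 8 weeks and then normoxia for 4 weeks, n = 4) and Nor 12W (normoxia for 12 weeks, n = 5). All 5 groups carry the ApoE deletion and received the same feed, so no wild-type or normal-diet aorta was compared. The part of the aorta taken for RNA is not stated in the sources used here.

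Within each cluster the genes are numbered along the chromosome. Genes of the same number in different clusters are paralogs that descend from 1 ancestral gene. In the embryo, low-numbered genes are switched on early and reach far toward the head, and high-numbered genes are switched on late and toward the tail. Cells of adult tissues, vascular smooth muscle among them, keep part of this pattern, so that the set of Hox genes a tissue expresses carries a trace of its position along the body. The genes were described as anterior (paralogs 1 to 3), central (4 to 8) and posterior (9 to 13).

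The tissue label was compared with marker genes. Smooth muscle genes had a list mean of 14.6 to 16.2 (log2 signal) on the 23 arrays. Genes of adrenal cortex (3.23 to 3.42) and kidney tubule (3.19 to 3.34) were at the level of background. Sympathetic neuron genes stood apart on 5 arrays, with list means of 7.75 in CIH 8W replicate 3, 6.90 in CIH 8W replicate 5, 11.9 in Nor 8W replicate 3, 9.83 in Nor 12W replicate 3 and 8.70 in Nor 12W replicate 4. None of the CIH 12W or CIH 8W+Nor 4W arrays was among them. Cardiomyocyte genes had a list mean of 8.91 in Nor 12W replicate 4, and the smooth muscle mean was lowest in CIH 8W replicate 3 (14.6) and Nor 12W replicate 3 (14.8). Each group comparison was therefore also computed on the 18 arrays without strong sympathetic neuron signal. CIH 8W, Nor 8W and Nor 12W then had fewer arrays, so a call can be lost with little change in the difference. Skeletal muscle genes had list means of 7.46 in CIH 12W replicate 4, 7.73 in CIH 8W+Nor 4W replicate 1 and 7.50 in Nor 8W replicate 1, and the next highest was 6.97 in Nor 8W replicate 3. The comparisons were also computed without these 3 arrays, a choice made after seeing the data.

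**Figure D1:**
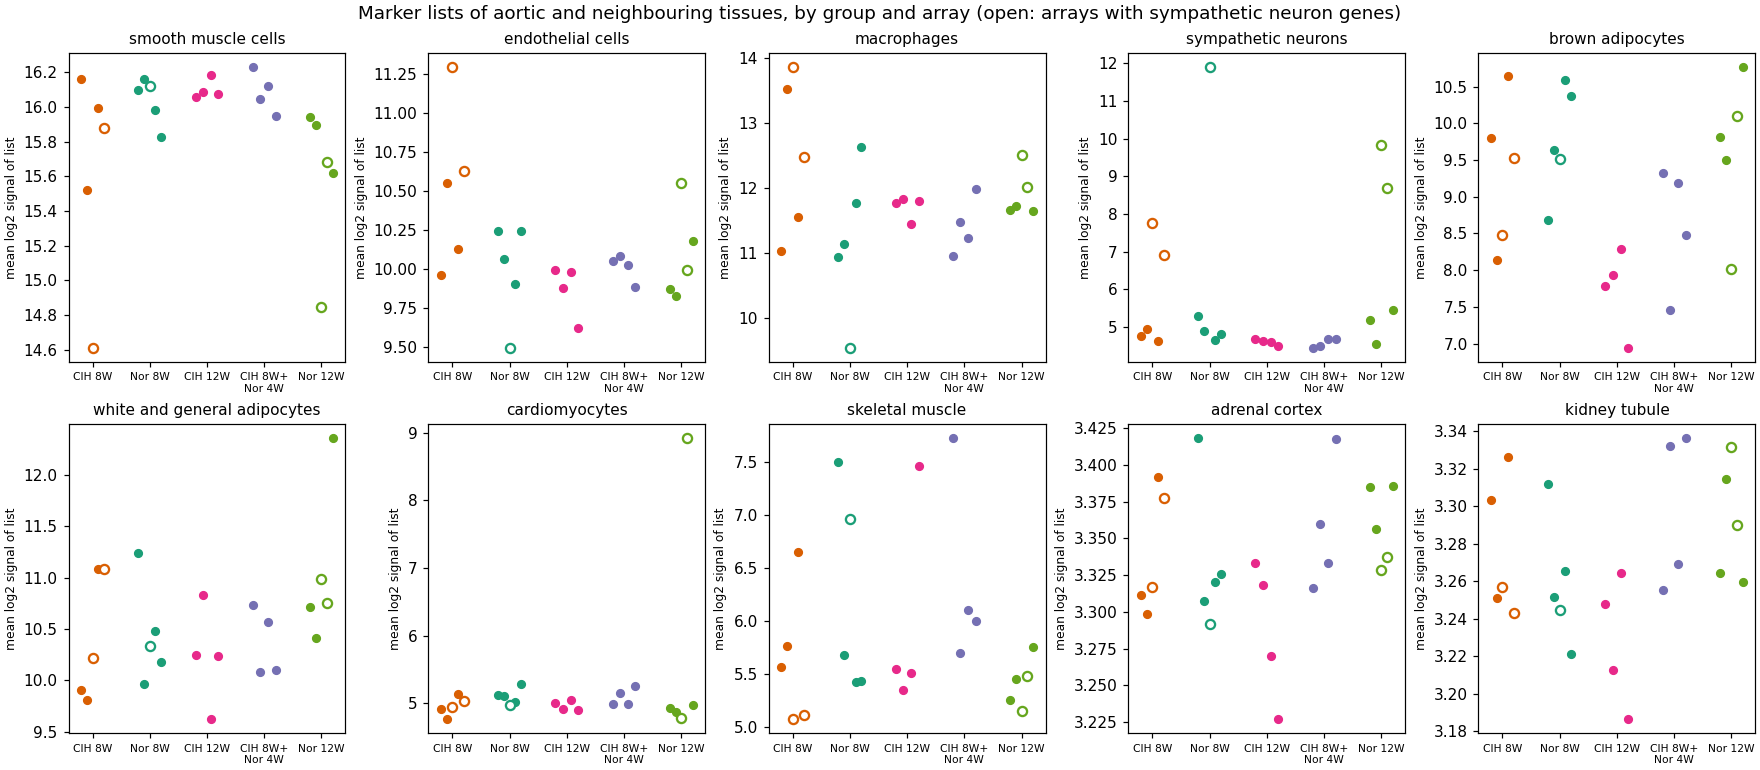
Mean log2 signal of 10 marker lists on each of the 23 arrays, by group (open circles: the 5 arrays with a sympathetic neuron list mean above 6). Smooth muscle genes lay between 14.6 and 16.2, and adrenal cortex and kidney tubule genes below 3.5, on all 23 arrays.

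Promoters of 4 HoxA genes that lay above background, and of whose 6 pairs 4 correlated between arrays, are shown here. They are RefSeq windows of 300 bases on GRCm38.p6, minus strand, most of each lying before the listed start. The Hoxa3 window lies beyond those of Hoxa5 and Hoxa6, out of the numbered order of the genes. Whether its start is used in the aorta was not tested. Of the 33 genes, 17 had a window and 5 of these lay above background (Hoxa2, Hoxa3, Hoxa5, Hoxa6 and Hoxb8). Capitals mark letters of 6 motifs, searched on both strands and spelled out after the sequences.
Hoxa2, chr6:52164782-52165081: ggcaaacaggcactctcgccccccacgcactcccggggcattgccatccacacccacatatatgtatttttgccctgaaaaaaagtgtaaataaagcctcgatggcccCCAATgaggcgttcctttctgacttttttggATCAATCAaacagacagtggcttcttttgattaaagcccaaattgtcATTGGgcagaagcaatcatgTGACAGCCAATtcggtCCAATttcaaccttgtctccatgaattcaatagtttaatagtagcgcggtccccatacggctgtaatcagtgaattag
Hoxa3, chr6:52213018-52213317: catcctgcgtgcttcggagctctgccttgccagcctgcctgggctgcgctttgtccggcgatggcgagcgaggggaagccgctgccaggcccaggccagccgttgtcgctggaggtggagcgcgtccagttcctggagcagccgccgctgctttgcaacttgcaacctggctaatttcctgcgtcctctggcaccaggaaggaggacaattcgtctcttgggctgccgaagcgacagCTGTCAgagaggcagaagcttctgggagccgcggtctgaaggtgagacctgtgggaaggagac
Hoxa5, chr6:52204538-52204837: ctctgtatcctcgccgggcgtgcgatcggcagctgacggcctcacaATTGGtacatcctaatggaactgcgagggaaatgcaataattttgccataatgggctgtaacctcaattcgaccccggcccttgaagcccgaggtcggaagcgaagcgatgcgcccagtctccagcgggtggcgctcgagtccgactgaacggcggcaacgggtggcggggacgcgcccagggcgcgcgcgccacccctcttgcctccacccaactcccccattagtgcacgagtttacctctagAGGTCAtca
Hoxa6, chr6:52208623-52208922: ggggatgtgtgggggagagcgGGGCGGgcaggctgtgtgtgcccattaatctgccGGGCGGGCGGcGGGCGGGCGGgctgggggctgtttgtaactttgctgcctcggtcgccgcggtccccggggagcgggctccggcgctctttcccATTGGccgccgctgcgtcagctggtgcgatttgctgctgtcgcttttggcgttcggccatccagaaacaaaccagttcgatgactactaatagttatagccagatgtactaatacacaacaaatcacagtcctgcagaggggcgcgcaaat

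The Hoxa2 window held 4 CCAAT boxes, whose letters CCAAT were in 37.41% of all 32851 promoter windows. It also held 1 Hox-Pbx site (TGATTNAT, in 3.22% of all windows) and 1 Meis site (TGACAG, in 19.18%). Hoxa3 had 1 Meis site. Hoxa5 had 1 CCAAT box and 1 nuclear receptor half-site (AGGTCA, in 16.26%). Hoxa6 had 1 CCAAT box and 5 GC boxes (GGGCGG, in 35.66%), of which neighbouring pairs overlap. The TATA box (TATAAA, in 13.62%) was in none of these 4 windows. Hoxa10 and Hoxd11 had 2 windows each, and the 19 windows of the 17 genes had a median of 20 CpG, against 7 for all windows. A match says only that the letters are present.

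Hox expression in the aorta ran from paralog 2 to paralog 10. The limit of each array was the 95th percentile of its background probe sets, of which there were only 23. A gene was counted as above background where its signal exceeded the limit of the same array on at least 12 of the 23 arrays. This held for 14 of 33 Hox genes (42.4%), against 43.21% of all 30176 named genes. Levels of different probe sets cannot be set against each other, so only the position against background is compared between genes. Less RNA per cell and fewer cells of a type cannot be told apart in whole tissue.

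By class, 4 of 6 anterior genes (Hoxa2, Hoxa3, Hoxb2, Hoxb3), 8 of 12 central genes (Hoxa5, Hoxa6, Hoxb5, Hoxb6, Hoxb7, Hoxb8, Hoxc6, Hoxc8) and 2 of 15 posterior genes (Hoxc9, Hoxc10) lay above background. All 3 measured paralogs of number 6 were above background on all 23 arrays. Hoxb1 and Hoxd1 were above background on 0 arrays, as were all 9 genes of numbers 11 to 13. These last genes pattern the tail end of the trunk, the limbs and the urogenital tract.

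By cluster, 4 of 8 HoxA, 6 of 9 HoxB, 4 of 9 HoxC and 0 of 7 HoxD genes passed. The 7 HoxD genes were above background on 0 arrays, and their mean signals lay between 2.77 and 4.24. Among the genes with a probe set of their own, the highest-numbered above background was Hoxa6 in HoxA, Hoxb8 in HoxB and Hoxc10 in HoxC. The probe set that Hoxa7 shares with Mira was above background on 23 arrays and that of Hoxa9 with Mir196b on 9, so an end of HoxA expression at Hoxa6 was not shown.

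The limit fell among several dim genes. Hoxb2 was just inside, above background on 12 arrays, and Hoxc4 just outside, on 11. Hoxa3 passed on 14 arrays, Hoxb8 on 16 and Hoxb3 on 18. Hoxa10, a gene of the uterus and hindlimb, passed on 3. With the 99th percentile as the limit 10 genes passed, and Hoxa3, Hoxb2, Hoxb3 and Hoxb8 did not. Single arrays had between 9 and 16 Hox genes above background, but the background limit itself ran from 4.64 to 5.50. Nor 8W replicate 5, with 9 genes, had the highest limit, and CIH 12W replicate 1, with 16, had the lowest. These counts therefore do not rank the arrays by Hox signal.

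**Figure D2:**
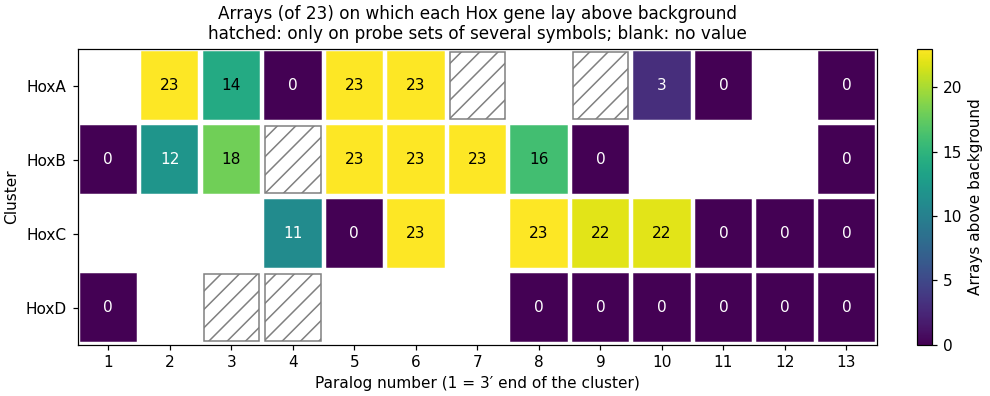
Number of arrays (of 23) on which each Hox gene exceeded the background of that array, with the 4 clusters in rows and paralog numbers 1 to 13 in columns (hatched: only on probe sets of several symbols; blank: no value). Genes above background lay between paralogs 2 and 10, and none was in HoxD.

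The genes above background differed in how far they varied between arrays. Hoxc10, which patterns lumbar motor neurons, had the largest SD over the 23 arrays (0.59), followed by Hoxc8 (0.52), Hoxa2 (0.46) and Hoxa5 (0.37). The median SD of all named genes above background was 0.23. Hoxb3 had the smallest SD of the 14 (0.13).

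Hoxc10 had signals of 7.03, 6.19, 5.47, 5.84 and 6.33 in CIH 8W, against 6.86, 6.24, 4.84, 6.21 and 6.67 in Nor 8W. The CIH 12W arrays had 6.65, 7.07, 6.50 and 6.73, the CIH 8W+Nor 4W arrays had 6.61, 5.97, 6.91 and 5.67, and the Nor 12W arrays had 7.07, 5.78, 6.78, 6.27 and 7.13. The groups overlapped in each of these comparisons, and the lowest value belonged to Nor 8W replicate 3, the array with the strongest sympathetic neuron signal, where Hoxc10 was below the background limit (5.02). Hoxc10 was called in 0 comparisons.

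**Figure D3:**
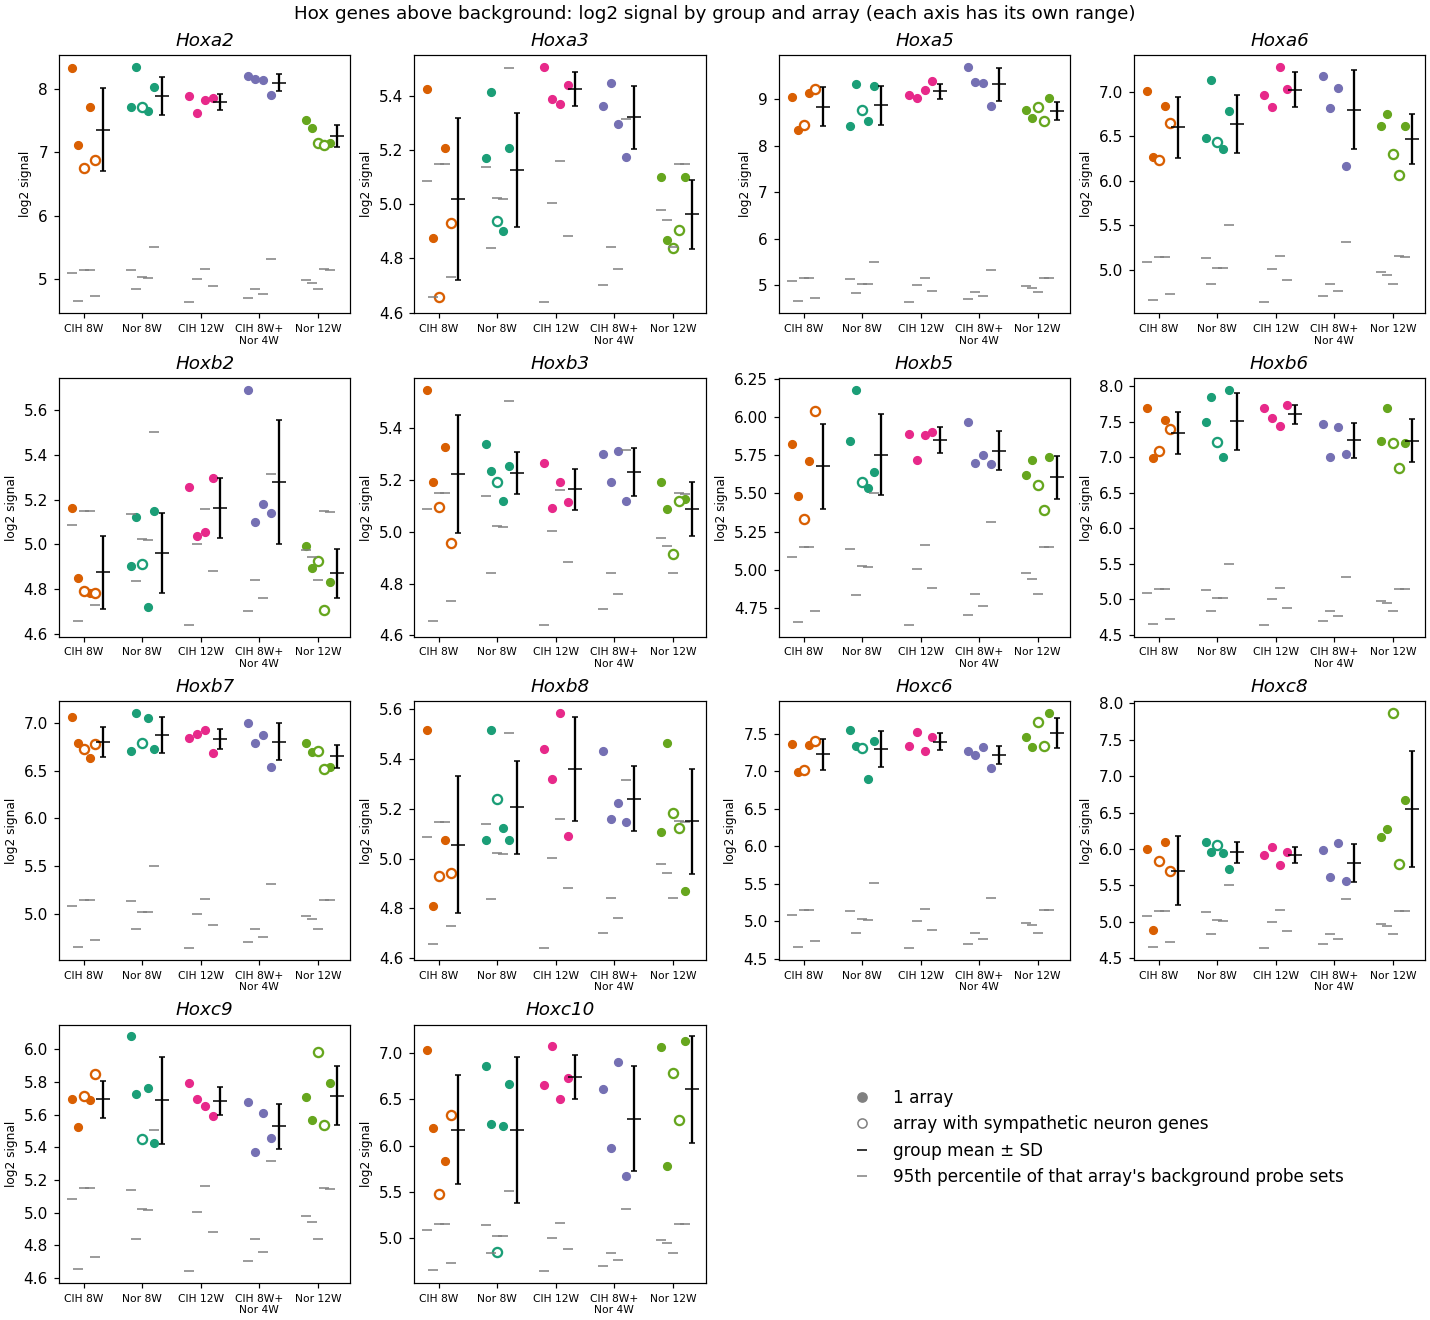
Log2 signal of the 14 Hox genes above background on each array, by group, with the group mean ± SD (black) and the background limit of each array (grey ticks); open circles are the 5 arrays with sympathetic neuron genes. Hoxa2 lay between 7.89 and 8.20 in CIH 8W+Nor 4W and between 7.11 and 7.51 in Nor 12W, and Hoxc8 reached 7.86 in Nor 12W replicate 3.

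To test whether the groups differed, limma was fitted over the whole table of 65956 probe sets. Following the study, a gene was called when its fold change exceeded 1.1 and its unadjusted p was below 0.05. After Benjamini-Hochberg adjustment over all 65956 probe sets in limma, 0 of 33 Hox genes had an adjusted p below 0.05 in any of these comparisons or in the F-test, and 1 to 7 had an unadjusted p below 0.05 in each comparison. Of all probe sets, the share below an adjusted p of 0.05 was 0% in CIH 8W compared with Nor 8W, 0.89% in CIH 12W compared with Nor 12W, 0.0182% in CIH 12W compared with CIH 8W+Nor 4W and 0.3% in CIH 8W+Nor 4W compared with Nor 12W. It was 0.044% in Nor 12W compared with Nor 8W, 1.04% in CIH 12W compared with CIH 8W, 0.359% in CIH 8W+Nor 4W compared with CIH 8W, 0% for the change in the CIH effect with time and 1.27% in the F-test. All calls below are at unadjusted p.

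In CIH 8W compared with Nor 8W, 1 of 33 Hox genes was called, against 6.45% of all probe sets and 11.4% of those above background. Hoxa2, which patterns the hindbrain and the second pharyngeal arch, had signals of 8.33, 7.11, 6.75, 7.71 and 6.87 in CIH 8W, against 7.71, 8.35, 7.71, 7.64 and 8.03 in Nor 8W. The groups overlapped, since CIH 8W replicate 1 lay near the highest Nor 8W array and 3 of 5 CIH 8W arrays lay below all Nor 8W arrays. Hoxa2 fell by 0.53 (log2 difference, SE 0.22, limma adjusted p = 0.696). The call was lost without CIH 8W replicate 2 (-0.47), replicate 3 (-0.38) or replicate 5 (-0.41) or Nor 8W replicate 2 (-0.42), and on the 18 arrays without strong neuron signal the difference was -0.22 (limma adjusted p = 1.0). With the 2 groups fitted alone the same difference had an unadjusted limma p above 0.05. In this comparison 6 of 8 macrophage genes (among them Msr1, Itgam, Cd68 and Adgre1) and 4 of 8 endothelial genes (Vwf, Robo4, Cdh5 and Tie1) were called higher. Robo4 was above background on 0 arrays. Of the smooth muscle genes 1 of 10 (Myh11) and of the skeletal muscle genes 1 of 8 (Casq1) were called lower. The part of these shifts in the Hox result was not tested. Of the 14 genes above background, 12 had a negative difference, with a median of -0.08, against 0.03 for all probe sets above background.

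At 12 weeks, 6 of 33 Hox genes were called in CIH 12W compared with Nor 12W, against 11.3% of all probe sets. Hoxa2, Hoxa3, Hoxa6 and Hoxb2 were higher (4.29% of all probe sets) and Hoxc8 and Hoxc12 were lower (6.99%). The split of 4 higher and 2 lower became 8 higher and 1 lower after median centring, and also with the 2 groups fitted alone. Of the 14 genes above background 5 were called, against 18.1% of all probe sets above background. Their median difference was 0.23, against -0.0047 for all probe sets above background, and 11 of 14 were positive.

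Hoxa3, needed for the thymus and parathyroid, had signals of 5.51, 5.39, 5.37 and 5.44 in CIH 12W, against 5.10, 4.87, 4.84, 4.91 and 5.10 in Nor 12W. All 4 CIH 12W arrays lay above all 5 Nor 12W arrays, though Nor 12W was above background on only 1 array. Hoxa3 rose by 0.46 (SE 0.12, limma adjusted p = 0.0857). Hoxa2 had 7.89, 7.62, 7.82 and 7.85 in CIH 12W, against 7.51, 7.37, 7.15, 7.11 and 7.14 in Nor 12W. These groups did not overlap, and Hoxa2 rose by 0.54 (SE 0.23, limma adjusted p = 0.35).

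Hoxa6, a gene of the thoracic region, had 6.96, 6.83, 7.29 and 7.04 in CIH 12W, against 6.62, 6.75, 6.30, 6.06 and 6.62 in Nor 12W. The groups did not overlap, and it rose by 0.55 (SE 0.21, limma adjusted p = 0.28). Hoxb2, which acts in the hindbrain, had 5.26, 5.04, 5.06 and 5.30 in CIH 12W, against 4.99, 4.89, 4.93, 4.71 and 4.83 in Nor 12W. It rose by 0.29 (SE 0.12, limma adjusted p = 0.31), with both groups close to background.

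Hoxc8, which patterns thoracic vertebrae and forelimb motor neurons, had 5.92, 6.03, 5.78 and 5.95 in CIH 12W, against 6.17, 6.27, 7.86, 5.79 and 6.67 in Nor 12W. The groups overlapped, and the value of 7.86 came from Nor 12W replicate 3. Hoxc8 fell by 0.63 (SE 0.29, limma adjusted p = 0.395), and by 0.31 without that array. Hoxc12 fell by 0.21 (limma adjusted p = 0.255) at signals below background on all 23 arrays.

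On the 18 arrays without strong neuron signal 1 of these 6 genes was still called, Hoxa3 (0.40, limma adjusted p = 0.269). There the differences were 0.45 (SE 0.22) for Hoxa2, 0.36 (SE 0.23) for Hoxa6, 0.26 (SE 0.14) for Hoxb2 and -0.45 (SE 0.23) for Hoxc8. How far the smaller Nor 12W group accounts for the lost calls was not tested. The call of Hoxa2 was also lost without CIH 12W replicate 1 (0.50), 3 (0.53) or 4 (0.52) or Nor 12W replicate 3 (0.51), 4 (0.50) or 5 (0.51). That of Hoxa6 was lost without CIH 12W replicate 3 (0.47), and that of Hoxb2 without CIH 12W replicate 1 (0.26) or 4 (0.25) or Nor 12W replicate 4 (0.25). That of Hoxc8 was lost without any 1 of the 4 CIH 12W arrays (-0.67 to -0.59), without Nor 12W replicate 3 (-0.31) or replicate 5 (-0.60), after median centring (-0.57), and with the 2 groups fitted alone. That of Hoxc12 was lost without CIH 12W replicate 4 (-0.15). Without the 3 arrays with skeletal muscle genes the calls of Hoxa2 (0.52) and Hoxc8 (-0.64) were lost.

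Markers of other cell types moved in the same comparison. Of the brown adipocyte genes 7 of 10 were called lower (median difference -2.20, among them Cox8b, Cox7a1, Cidea and Cpt1b), and of the white and general adipocyte genes 5 of 7 (among them Lipe, Fabp4, Plin1 and Adipoq). Of the endothelial genes 2 of 8 (Emcn and Kdr) and of the cardiomyocyte genes 1 of 10 (Myl3) were called lower, and 3 of 10 smooth muscle genes (Cnn1, Myocd and Lmod1) and 1 of 8 skeletal muscle genes (Casq1) higher. Myl3 was above background on 0 arrays. The part of these shifts in the Hox results was not tested.

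In CIH 8W+Nor 4W compared with Nor 12W, 7 of 33 Hox genes were called, against 9.37% of all probe sets. Hoxa2, Hoxa3, Hoxa5 and Hoxb2 were higher (4.14% of all probe sets) and Hoxc5, Hoxc6 and Hoxc8 were lower (5.23%). After median centring the split was 5 higher and 2 lower. Of the 14 genes above background 6 were called, against 15.2% of probe sets above background. This comparison and the one above share the Nor 12W arrays. Hoxa2 had 8.20, 8.15, 8.14 and 7.89 in CIH 8W+Nor 4W, all above the 7.11 to 7.51 of Nor 12W. It rose by 0.84 (SE 0.23, limma adjusted p = 0.14), and by 0.75 on the 18 arrays.

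Hoxb2 had 5.69, 5.10, 5.18 and 5.14 in CIH 8W+Nor 4W, all above the 4.71 to 4.99 of Nor 12W, and rose by 0.41 (SE 0.12, limma adjusted p = 0.166). Hoxa3 had 5.36, 5.45, 5.29 and 5.18 in CIH 8W+Nor 4W, all above the 4.84 to 5.10 of Nor 12W, and rose by 0.36 (limma adjusted p = 0.303). Both calls remained on the 18 arrays, with differences of 0.37 for Hoxb2 and 0.30 for Hoxa3. The Hoxb2 value of 5.69 came from CIH 8W+Nor 4W replicate 1, and without that array the difference was 0.27, still called.

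Hoxa5, a gene of the neck and of lung development, had 9.70, 9.37, 9.35 and 8.86 in CIH 8W+Nor 4W, against 8.76, 8.60, 8.84, 8.53 and 9.03 in Nor 12W. The groups overlapped at 1 CIH 8W+Nor 4W array, replicate 4. Hoxa5 rose by 0.57 (SE 0.21, limma adjusted p = 0.351). The call was lost without CIH 8W+Nor 4W replicate 1 (0.44), the array with the highest skeletal muscle list mean, and on the 18 arrays (0.52).

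Hoxc6 had 7.28, 7.21, 7.33 and 7.04 in CIH 8W+Nor 4W, against 7.45, 7.32, 7.66, 7.34 and 7.78 in Nor 12W. It fell by 0.29 (SE 0.12, limma adjusted p = 0.417), and the call was lost without CIH 8W+Nor 4W replicate 4 (-0.24), Nor 12W replicate 3 (-0.26) or replicate 5 (-0.23), after quantile normalization (-0.24) and on the 18 arrays (-0.30). Hoxc8 had 5.99, 5.61, 6.08 and 5.57 in CIH 8W+Nor 4W, against 6.17, 6.27, 7.86, 5.79 and 6.67 in Nor 12W. It fell by 0.74 (SE 0.29, limma adjusted p = 0.38), and the call was lost without CIH 8W+Nor 4W replicate 4 (-0.66) or Nor 12W replicate 3 (-0.41) or with the 2 groups fitted alone. On the 18 arrays it remained (-0.56). Hoxc5 fell by 0.18 at signals below background, and that call was lost without CIH 8W+Nor 4W replicate 2 (-0.16) or Nor 12W replicate 4 (-0.15) or after median centring (-0.15), and without the 3 arrays with skeletal muscle genes (-0.17).

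In this comparison 4 of 10 smooth muscle genes (Mylk, Smtn, Lmod1 and Synpo2) and 2 of 8 skeletal muscle genes (Casq1 and Acta1) were called higher. Of the brown adipocyte genes 4 of 10 (Cidea, Cox8b, Cox7a1 and Pdk4) were called lower, as were 1 of 7 white and general adipocyte genes (Retn) and 1 of 11 sympathetic neuron genes (Npy). The part of these shifts in the Hox results was not tested.

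Between the 2 groups with CIH that ended at 12 weeks, CIH 12W and CIH 8W+Nor 4W, 1 of 33 Hox genes was called, against 6.33% of all probe sets. This was Hoxd1, which fell by 0.15 (limma adjusted p = 0.513) at signals below background on all 23 arrays; the call was lost without CIH 12W replicate 3 (-0.13) or CIH 8W+Nor 4W replicate 2 (-0.11), after median centring (-0.10) or quantile normalization (-0.12). The brown adipocyte gene Ucp1 and the cardiomyocyte gene Myl3 were called lower and the adipocyte gene Lep higher. Myl3 was above background on 0 arrays and Lep on 3. Of the 14 genes above background 0 were called by limma, against 7.65% of probe sets above background, and 0 had an unadjusted p below 0.05. The mean signal of Hoxa2 was 7.79 ± 0.12 for CIH 12W arrays, against 8.10 ± 0.14 for CIH 8W+Nor 4W arrays (SD, n = 4 each).

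**Figure D4:**
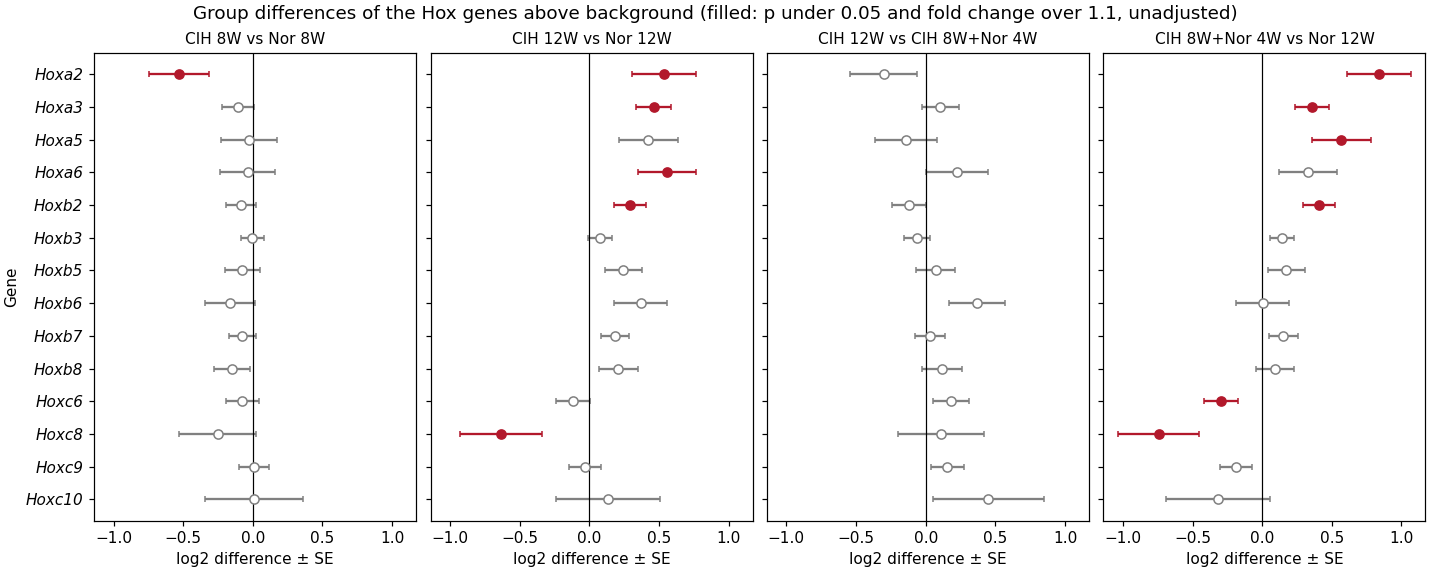
Log2 difference ± SE of the 14 Hox genes above background in 4 comparisons (filled red: unadjusted p under 0.05 and fold change over 1.1 in limma; first-named group minus the other). Hoxa2, Hoxa3 and Hoxb2 were called higher in both comparisons with Nor 12W, and Hoxc8 was called lower in each; these 2 comparisons share the Nor 12W arrays.

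Time was compared within each treatment. In Nor 12W compared with Nor 8W, 3 of 33 genes were called, against 7.33% of all probe sets. Hoxa2 fell by 0.63 (limma adjusted p = 0.429), with all 5 Nor 12W arrays below all 5 Nor 8W arrays, Hoxb7 fell by 0.23 and Hoxc8 rose by 0.60. On the 18 arrays the Hoxb7 (-0.22) and Hoxc8 (0.44) calls were lost. Hoxc8 differed by 0.27 without Nor 12W replicate 3. Of the 23 fits that each left out 1 array, the call was lost in 6 for Hoxc8, 4 for Hoxb7 and 0 for Hoxa2. The Hoxc8 call was also lost without the 3 arrays with skeletal muscle genes (0.63). In this comparison 2 of 10 smooth muscle, 1 of 8 endothelial and 1 of 8 skeletal muscle genes were called lower and 2 of 7 white and general adipocyte genes higher.

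In CIH 12W compared with CIH 8W, 4 of 33 were called, against 12.4%, with Hoxa3 (0.41), Hoxb2 (0.29) and Hoxb8 (0.30) higher and Hoxc12 (-0.16) lower. All 4 of these calls were lost on the 18 arrays (0.26, 0.23, 0.22 and -0.11), and that of Hoxb8 in 7 and Hoxb2 in 2 of the 23 fits without 1 array. On the 18 arrays Hoxb3 was called lower instead (-0.19). Hoxc12 differed by -0.11 without CIH 12W replicate 4, and its call was lost. After median centring 5 genes were higher and 0 lower. In the same comparison 7 of 8 endothelial and 4 of 10 brown adipocyte genes were called lower and 4 of 10 smooth muscle genes higher, with 1 higher and 2 lower of 7 white and general adipocyte genes and 1 of 8 skeletal muscle genes higher.

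In CIH 8W+Nor 4W compared with CIH 8W, 4 of 33 were called, against 11.9%, all higher: Hoxa2 (0.74), Hoxa3 (0.30), Hoxa5 (0.48) and Hoxb2 (0.40). On the 18 arrays the Hoxb2 call was kept, and Hoxa2 (0.38), Hoxa3 (0.15) and Hoxa5 (0.47) were not called. The Hoxa3 call was also lost in 4 and the Hoxa5 call in 5 of the 23 fits without 1 array, and both with the 2 groups fitted alone or without the 3 arrays with skeletal muscle genes. Without CIH 8W+Nor 4W replicate 1 Hoxb2 differed by 0.27, still called. In this comparison 5 of 8 endothelial, 3 of 8 macrophage and 2 of 10 brown adipocyte genes were called lower, and 4 of 10 smooth muscle and 1 of 8 skeletal muscle genes higher. The endothelial genes called against CIH 8W at both later groups included Robo4, which was above background on 0 arrays. The adipocyte genes called in Nor 12W compared with Nor 8W and in CIH 12W compared with CIH 8W included Lep, above background on 3. The part of the marker shifts in these Hox results over time was not tested.

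Whether the CIH effect changed with time was tested as a contrast of its own, CIH against normoxia after 12 weeks minus the same after 8 weeks. It was called for 4 of 33 genes, against 10.4% of all probe sets. For Hoxa2 the effect was 0.54 at 12 weeks and -0.53 at 8 weeks, a difference of 1.07 (SE 0.31, limma adjusted p = 0.208). The differences were 0.57 for Hoxa3 and 0.38 for Hoxb2, and -0.24 for Hoxc12, which was below background. After median centring 6 genes were called higher and 1 lower, against 3 and 1 as deposited. On the 18 arrays the differences were 0.67 for Hoxa2 (limma adjusted p = 0.971) and 0.41 for Hoxa3 (limma adjusted p = 0.959), both still called at unadjusted p. They were 0.30 for Hoxb2 and -0.15 for Hoxc12, which were not called. The Hoxa2 and Hoxa3 calls were lost in 0 of the 23 fits without 1 array, and that of Hoxb2 in 5. In the same contrast 9 of 10 smooth muscle genes and 1 of 8 skeletal muscle and 1 of 10 cardiomyocyte genes were called higher, and 4 of 8 endothelial, 4 of 8 macrophage, 3 of 10 brown adipocyte and 2 of 7 white and general adipocyte genes lower, and their part in the Hox result was not tested.

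In limma's moderated F-test over the 5 groups, Hoxa2 (F = 5.10, adjusted p = 0.153), Hoxa3 (F = 5.01) and Hoxb2 (F = 4.91) passed an unadjusted p of 0.05, 3 of 33 genes against 13.4% of all probe sets.

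Next, the arrays were compared for genes that moved together. Signals were taken as deviations from the group means, and p-values came from 100000 permutations of the arrays within groups, adjusted over the 91 pairs of the 14 genes. In all, 85 of 91 pairs had a positive correlation, with a median r of 0.41, and 18 pairs passed an adjusted p of 0.05, all positive. Among all pairs of the 13039 named genes above background the median r was 0.02, and 6.12% reached the lowest r of the 18 pairs (0.579), against 25.27% of the Hox pairs. These figures describe the same 23 arrays, and genes are not independent.

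The pairs that passed lay within HoxA (4 of 6), between HoxA and HoxB (10 of 24), within HoxB (3 of 15) and within HoxC (1 of 6). Between HoxC and the other clusters 0 of 40 passed, with median r of 0.29 for HoxA with HoxC and 0.19 for HoxB with HoxC. Whether these shares differ was not tested. The highest correlation was that of Hoxa2 with Hoxa3 (n = 23 arrays, r = 0.868, permutation adjusted p = 0.00485; rho = 0.784, permutation adjusted p = 0.0118; r = 0.759 without the 2 outermost arrays). Hoxa5 and Hoxa6 had r = 0.779, and the paralogs Hoxa6 and Hoxb6 had r = 0.764. Hoxc8 and Hoxc9, neighbours in HoxC, had r = 0.605.

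The number of pairs depended on single arrays. Leaving out CIH 8W replicate 1 gave 8 pairs, and leaving out CIH 8W replicate 4 gave 11. On the 18 arrays without strong neuron signal 1 pair passed, while the median r was 0.49.

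**Figure D5:**
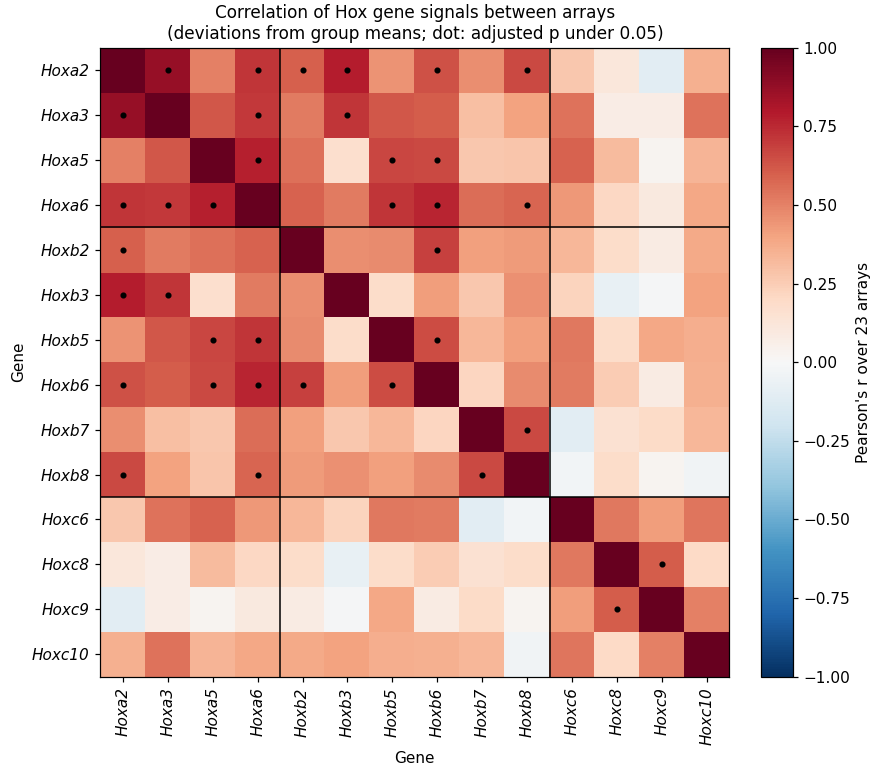
Pearson's r between the 14 Hox genes above background over 23 arrays, after removal of group means (colour scale from -1 to 1; dots: permutation adjusted p under 0.05; lines separate HoxA, HoxB and HoxC). The 18 marked pairs are all positive, and 0 of them join HoxC with another cluster.

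Genes that work with or upstream of Hox were read from lists. Of all probe sets above background, 11.4% were called in CIH 8W compared with Nor 8W and 18.1% in CIH 12W compared with Nor 12W. The share was 7.65% in CIH 12W compared with CIH 8W+Nor 4W and 15.2% in CIH 8W+Nor 4W compared with Nor 12W. Whether the lists below differ from these shares was not tested, and their calls on the 18 arrays are not given. The TALE cofactors bind DNA together with Hox proteins. Of 8 measured, Pknox1 rose by 0.35 in CIH 12W compared with Nor 12W (limma adjusted p = 0.105), and 0 were called in CIH 8W compared with Nor 8W, in CIH 12W compared with CIH 8W+Nor 4W or in CIH 8W+Nor 4W compared with Nor 12W. Meis1 and Meis2, TALE genes of the vessel wall, were above background on all 23 arrays.

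Retinoic acid switches on anterior Hox genes in the embryo. Of 17 measured genes of its pathway, Aldh1a2, which makes retinoic acid, rose by 0.64 and Crabp2, a binding protein, by 0.27 in CIH 8W compared with Nor 8W. In CIH 12W compared with Nor 12W, Dhrs3, a retinal reductase, rose by 0.57 and the receptor Rxrg fell by 0.28. In CIH 8W+Nor 4W compared with Nor 12W, Cyp26b1, which degrades retinoic acid, rose by 0.52 (limma adjusted p = 0.025), and Aldh1a2 fell by 0.65 and Rxrg by 0.21. In CIH 12W compared with CIH 8W+Nor 4W, Dhrs3 rose by 0.87 and Cyp26b1 fell by 0.40. Crabp2 and Rxrg were above background on 0 arrays, and Cyp26b1 on 11.

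Polycomb proteins keep Hox genes silent and Trithorax proteins keep them active. Of 18 measured genes of both kinds, 1 rose (Bmi1, 0.26) and 1 fell (Men1, -0.18) in CIH 8W compared with Nor 8W. With CIH 12W against Nor 12W 4 rose, the Polycomb gene Phc1 (0.37), the Trithorax gene Kmt2a (0.43) and the histone demethylases Kdm6a (0.21) and Kdm6b (0.35). In CIH 8W+Nor 4W compared with Nor 12W 5 rose, among them Kdm6b (0.43, limma adjusted p = 0.0855), Kdm6a (0.34, limma adjusted p = 0.0849) and the Polycomb genes Suz12 (0.22) and Phc1 (0.21). With CIH 12W against CIH 8W+Nor 4W 1 fell (Bmi1, -0.29). Of the noncoding genes of the clusters 6 of 17 were measured, and none reached 12 arrays above background, the highest being Mir196a-2 on 9. Mir196a-2 fell by 0.35 in CIH 12W compared with Nor 12W (limma adjusted p = 0.411), and Mir615, which was above background on 0 arrays, rose by 0.26 in CIH 8W+Nor 4W compared with Nor 12W (limma adjusted p = 0.283).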

How the data were processed

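Total RNA from mouse aorta was measured on 23 Clariom D arrays in 5 groups, 1 array per animal as far as the methods state. The authors deposited 1 log2 signal per probe set and array, normalized across arrays in Transcriptome Analysis Console per the methods and in Affymetrix Expression Console per the processing notes. The summary method and genome build are not given in the sources used here. The signals were used as deposited. Of 72688 probe sets, 6732 controls were left out.

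The other 65956 entered 1 model in limma 3.58.1 (R 4.3.3), with 5 group means and empirical Bayes moderation. Called means a fold change over 1.1 with an unadjusted p under 0.05. Adjusted p-values are Benjamini-Hochberg over all probe sets. On simulated data for CIH 12W vs Nor 12W over 65956 probe sets, 64% of log2 changes of 0.25, 90% of 0.5 and 4.486% of unchanged probe sets were called. Each change was given to 50 probe sets, and the shares were not computed for the Hox genes. In that comparison the called Hox genes above background had an SE of 0.12 (Hoxa3 and Hoxb2) to 0.29 (Hoxc8). Hoxa5, with a difference of 0.42 (SE 0.21), was not called. Correlations used Python 3.11.15 with 100000 permutations. Symbols came from the platform annotation, and promoters from RefSeq. The number of arrays limits the precision.

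Named in full are Hox genes called in 4 main comparisons or the F-test and the 4 genes above background with the largest SD. Genes of other lists are named where called in those comparisons, at most 4 a list in 1 comparison with the smallest p, apart from called genes of lists at background (adrenal cortex and kidney tubule). The members and lists were chosen with earlier results of these data known. Alternatives were median centring, quantile normalization, a filter on dim probe sets, the mean of all probe sets, a replicate block, the 2 groups alone, removal of 5 arrays with neuron genes, removal of 3 arrays with skeletal muscle genes (list mean over 7, chosen after seeing the data) and each array left out. Each Hox gene had 1 probe set, so the mean of all probe sets could not change its signal.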

Additional observations from a re-analysis of the deposited data

Results flagged for a closer look

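In 3 of 70 groups of 1 gene, 1 array stood far from the others, about the 1 in 20 that chance gives. Hoxb2 was 5.16 in CIH 8W replicate 1, against 4.78 to 4.85 on the 4 other arrays. Hoxb2 was 5.69 in CIH 8W+Nor 4W replicate 1, against 5.10 to 5.18 on the 3 others. Hoxb5 was 5.72 in CIH 12W replicate 2, against 5.88 to 5.90 on the 3 others.

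The effect of CIH differed between 12 and 8 weeks at unadjusted p in limma for Hoxa2 (1.07), Hoxa3 (0.57), Hoxb2 (0.38) and Hoxc12 (-0.24), as a log2 difference of the effects, and the lowest adjusted p was 0.208.

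Of the 4 probe sets that carry a Hox symbol with another symbol, and that entered no comparison, 2 were above background on 23 arrays. They are annotated to Hoxa7 with Mira (6.23 to 7.02) and to Hoxb4 with Mir10a (5.55 to 6.34). Which transcript gave the signal cannot be told apart.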

How the results depend on the processing

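No Hox call changed direction under the alternatives run, and the count in CIH 8W+Nor 4W compared with Nor 12W stayed within 1.5 times under all of them (5 to 8). The lowest limma adjusted p of a single Hox gene under any alternative was 0.00751, for Hoxa2 in CIH 8W+Nor 4W vs CIH 8W without CIH 8W replicate 1, where it otherwise ran up to 0.729. Without the 5 arrays with neuron genes, CIH 8W, Nor 8W and Nor 12W were smaller. There 11 of 30 calls of single genes remained. The number called was 1 in CIH 12W vs Nor 12W, 2 in CIH 8W+Nor 4W vs CIH 8W, 2 for the difference of the CIH effects, and 1 for correlated pairs. It was also 1 in CIH 12W vs CIH 8W, where the gene was Hoxb3 (-0.19), which was not called on the 23 arrays. Without the 3 arrays with skeletal muscle genes, chosen after seeing the data, 21 of 30 calls of single genes remained, and 7 were called for the difference of the effects. With the 2 groups alone it was 0 in CIH 8W vs Nor 8W, 3 in CIH 12W against CIH 8W+Nor 4W and 2 in CIH 8W+Nor 4W vs CIH 8W. Median centring gave 8 higher and 1 lower in CIH 12W vs Nor 12W, 0 in CIH 12W against CIH 8W+Nor 4W and 7 for the difference of the effects. Quantile normalization gave 0 in CIH 12W against CIH 8W+Nor 4W, 5 in the F-test and 33 pairs, and the filter on dim probe sets gave 0 in CIH 12W against CIH 8W+Nor 4W. With group means kept 33 pairs passed. With the limit on all 23 arrays 8 Hox genes were above background. The causes were not tested.

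Whether the replicate numbers pair the samples was not settled. Deviations of same-numbered arrays had a median correlation of 0.04 (14 of 43 over 0.1, highest 0.709). Those of differently numbered arrays had a median of -0.02 (50 of 168 over 0.1, highest 0.447). The replicate block gave 7 calls for the difference of the effects, 6 in the F-test and 9 in CIH 12W vs Nor 12W.

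With 1 array left out, the counts were 0 to 2 in CIH 8W vs Nor 8W, 2 to 8 in CIH 12W vs Nor 12W, 0 to 3 in CIH 12W against CIH 8W+Nor 4W, 6 to 8 in CIH 8W+Nor 4W vs Nor 12W, 1 to 5 in Nor 12W vs Nor 8W, 2 to 5 in CIH 12W vs CIH 8W, 2 to 5 in CIH 8W+Nor 4W vs CIH 8W, 2 to 10 for the difference of the effects, 3 to 5 in the F-test, 8 to 25 for pairs and 13 to 14 for genes above background. Several Hox genes lie close to background, where differences are compressed.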

Other observations

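Each of the 14 Hox genes above background was set against the mean of 5 tissue lists over the 23 arrays, as deviations from group means, a choice made after seeing the data. Of 70 relations, 0 passed a permutation p adjusted over the 70. Smooth muscle genes had a positive r with 12 of 14 Hox genes (median 0.35), and brown adipocyte genes also with 12 of 14 (median 0.21). White and general adipocyte genes had a positive r with 9 of 14 (median 0.05), endothelial genes with 4 of 14 (median -0.15) and macrophage genes with 1 of 14 (median -0.33). On the 18 arrays Hoxc8 had r = 0.609 with smooth muscle, 0.59 with brown adipocyte and -0.807 with macrophage genes. On the 23 arrays these were -0.296, -0.105 and -0.202. For smooth muscle genes, r of Hoxb8 went from 0.398 to 0.768, but r fell for Hoxa3 (0.625 to 0.555) and Hoxc10 (0.21 to 0.165). Values on the 18 arrays were not tested. Hoxc6 and the white and general adipocyte list had r = 0.625 (n = 23, permutation p = 0.00614, adjusted p = 0.268; rho = 0.613, permutation p = 0.00869, adjusted p = 0.109), and r = 0.481 without the 2 outermost arrays, while Hoxc6 and the brown adipocyte list had r = 0.066. The relation was not particular to Hoxc6. With the white and general adipocyte list, r was 0.547 for Hoxc9 (permutation adjusted p = 0.293), 0.366 for Hoxc8 (0.552) and 0.341 for Hoxc10 (0.51). On the 18 arrays r was 0.624 for Hoxc6, 0.607 for Hoxc9, 0.636 for Hoxc8 and 0.392 for Hoxc10.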
